A study of Homo sapiens with 12 samples.

Results

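Gene expression in OCI-AML2 cells carrying a guide against KDM6A was compared with that in cells carrying a control guide, in the DMSO vehicle and without any inhibitor. OCI-AML2 is a human acute myeloid leukemia line, and the series concerns leukemia with a rearranged KMT2A (MLL) gene. KDM6A encodes UTX, one of the demethylases that remove methyl groups from lysine 27 of histone H3. The comparison used 6 of the 12 libraries of the series: 2 with the guide sgLuc, labelled wild type, and 4 labelled UTX knockout, of which 2 carried sgUTX_2 and 2 carried sgUTX_4. All 6 libraries came from cells infected with lentivirus carrying the guide and grown with DMSO for 6 days, and all genes with enough counts were examined. The other 6 libraries carried the same guides and were grown with SGC0946 at 1 µM. This compound blocks DOT1L, which methylates histone H3. Its libraries entered the filter on low counts, the scaling and the estimate of spread, and are otherwise quoted only beside the DMSO values. The labels name no single-cell clones and do not tell whether libraries with one guide are separate cultures, so p-values cover the spread between libraries, which may be technical.

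UTX acts within the MLL3/4 (KMT2C/KMT2D) complexes, which place methyl groups on lysine 4 of histone H3 at enhancers, and opposes the methylation of lysine 27 by the Polycomb enzyme EZH2. The gene is recurrently mutated in leukemia and other cancers. Loss of UTX in blood cells is known to alter myeloid gene programs, partly without its demethylase activity.

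The DMSO libraries held between 15480493 and 21331599 counts. On the first principal component, which took 74.6% of the variance of the 6 libraries, the sgLuc libraries lay at -74.4 and -78.6 and the sgUTX libraries between 36.6 and 39.7. Counts of cytoplasmic ribosomal protein genes made up 17.7% and 19% of the sgLuc libraries, against 11.2% to 12% of the sgUTX libraries. In the sgLuc libraries with SGC0946 they made up 13% and 13.2%, so the sgLuc DMSO libraries stood apart from all others of the series in this respect. The part of these composition differences in the results below was not tested beyond the alternative scalings named beside them. Of 12 genes that mark the myeloid identity of the line 11 were tested, among them the leukocyte antigen gene PTPRC at 633 CPM (counts scaled by library size and edgeR's TMM factors) with sgLuc and 399 with sgUTX, and the myeloid transcription factor gene SPI1 at 389.6 and 376. Summed over the 11, the level was 7445 and 7108 CPM with sgLuc, 5296 and 4711 with sgUTX_2 and 6623 and 5727 with sgUTX_4. By the test described below 5 of the 11 were lower and 1 higher with sgUTX (32.3% and 28.7% of all tested genes). None of 14 erythroid markers had enough counts to be tested. Of the other marker lists, 3 of 11 megakaryocyte, 9 of 16 lymphoid and 5 of 14 adherent cell markers were tested. Summed over the tested members, the lymphoid markers stood at 149.5 and 152 CPM in the sgLuc libraries and 66.5 to 70.5 in the sgUTX libraries, most of it NCAM1. The megakaryocyte markers summed to 18.1 and 21.2 CPM with sgLuc and 7.06 to 10.4 with sgUTX, and the adherent cell markers to 12.1 and 13.3 CPM with sgLuc and 2.19 to 3.73 with sgUTX, nearly all of it PDGFRB, the receptor of a platelet growth factor. In bulk RNA, fewer cells of a type and less RNA per cell cannot be told apart.

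KDM6A (ENSG00000147050, X:44873177-45112602, plus strand, GRCh38 in GENCODE 29) was measured at 32 and 27.9 CPM with sgLuc, 14.7 and 15.6 with sgUTX_2 and 49.5 and 46.2 with sgUTX_4. The libraries of sgUTX_2 lay below both sgLuc libraries and those of sgUTX_4 lay above them. The log2 fold change against sgLuc was -0.99 with sgUTX_2 (SE 0.10, edgeR adjusted p = 3.56e-10) and 0.67 with sgUTX_4 (SE 0.09, edgeR adjusted p = 1.94e-07). A guide cuts DNA and need not lower the transcript, so these levels do not show whether UTX protein was lost with either guide. The paralog KDM6B, whose product also demethylates lysine 27, was measured at 127 and 131 CPM with sgLuc, 93 and 97.8 with sgUTX_2 and 93.8 and 99 with sgUTX_4. All 4 sgUTX libraries lay below both sgLuc libraries (log2 fold change -0.43, SE 0.06, edgeR adjusted p = 4.70e-06), a call that is lost at -0.15 when libraries are scaled by size alone. From here on, a bare value after a gene, in brackets or after "changed by", is its log2 fold change in the 4 sgUTX against the 2 sgLuc DMSO libraries, and genes given such a value passed the test (adjusted p under 0.05) unless said otherwise.

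Several promoters are shown because changed genes of the groups below carry in them a short motif of a known regulator. They were picked for holding the motif and are not the members with the largest changes throughout, so they illustrate it and do not show how common it is. The sequences are the 250 bases before the start of the gene in RefSeq (GRCh38.p14), 5′ to 3′ on the strand of the gene, with each match on either strand in capitals. The first 3 belong to ALDOC, ENO2 and BNIP3, at chr17:28576896-28577145 (minus strand), chr12:6914330-6914579 (plus strand) and chr10:131981924-131982173 (minus strand), and show ACGTG, the core letters of the site that hypoxia-inducible factors (HIF) bind. These letters also form part of CACGTG, the E-box that MYC and other factors bind, and there the matches of the 2 strands overlap.
ALDOC: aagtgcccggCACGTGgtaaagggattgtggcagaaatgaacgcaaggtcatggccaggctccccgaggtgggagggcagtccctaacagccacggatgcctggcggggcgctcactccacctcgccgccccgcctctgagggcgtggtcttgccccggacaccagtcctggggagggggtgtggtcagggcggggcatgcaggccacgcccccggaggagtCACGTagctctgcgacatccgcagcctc
ENO2: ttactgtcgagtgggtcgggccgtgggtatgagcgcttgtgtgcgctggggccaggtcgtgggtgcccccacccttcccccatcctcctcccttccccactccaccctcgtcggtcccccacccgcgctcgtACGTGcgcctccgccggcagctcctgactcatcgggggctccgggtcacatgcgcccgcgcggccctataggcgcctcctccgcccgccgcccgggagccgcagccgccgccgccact
BNIP3: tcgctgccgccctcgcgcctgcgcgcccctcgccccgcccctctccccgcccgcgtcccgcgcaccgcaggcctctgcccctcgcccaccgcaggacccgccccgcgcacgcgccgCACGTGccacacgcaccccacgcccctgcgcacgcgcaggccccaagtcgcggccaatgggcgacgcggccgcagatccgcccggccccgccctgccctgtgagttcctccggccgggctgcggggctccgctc
The promoter of CHAC1, at chr15:40953221-40953470 (plus strand), shows TGATGNAA, the letters of the composite element that ATF4 binds with C/EBP factors.
CHAC1: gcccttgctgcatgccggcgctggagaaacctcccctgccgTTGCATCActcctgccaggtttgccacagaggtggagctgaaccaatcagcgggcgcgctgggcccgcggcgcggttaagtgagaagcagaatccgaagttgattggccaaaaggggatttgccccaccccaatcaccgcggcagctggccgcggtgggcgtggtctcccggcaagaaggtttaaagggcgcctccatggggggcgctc
The promoters of E2F1, at chr20:33686386-33686635 (minus strand), and HELLS, at chr10:94545538-94545787 (plus strand), show TTTNNCGC, a loose form of the E2F site.
E2F1: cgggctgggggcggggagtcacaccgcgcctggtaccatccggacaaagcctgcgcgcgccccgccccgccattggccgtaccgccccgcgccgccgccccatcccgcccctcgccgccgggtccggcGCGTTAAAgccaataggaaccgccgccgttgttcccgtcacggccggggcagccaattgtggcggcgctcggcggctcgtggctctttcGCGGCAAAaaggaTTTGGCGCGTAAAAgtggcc
HELLS: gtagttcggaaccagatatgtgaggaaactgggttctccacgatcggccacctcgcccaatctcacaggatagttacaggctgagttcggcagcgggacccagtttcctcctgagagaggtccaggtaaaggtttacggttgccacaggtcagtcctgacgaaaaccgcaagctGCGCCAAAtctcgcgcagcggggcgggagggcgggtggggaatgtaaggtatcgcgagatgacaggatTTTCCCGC

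For these counts each gene had 1 window, the one nearest its annotated 5′ end, and 10805 of the 15060 tested genes had one. ACGTG was present in 59.1% of the windows of HIF targets outside glycolysis (13 of 22) and 37.5% of those of the glycolysis genes (9 of 24), against 23.1% for all tested genes with a window and 18.5% of all 35116 windows. The glycolysis share depended on the window: when any window of a gene counted, it was 62.5%, against 28.3% for all tested genes. TTTNNCGC was present in 45.5% of S phase genes (15 of 33), 9.38% of mitosis and G2 genes (3 of 32), 9.07% of tested genes and 5.92% of all windows. TGATGNAA was present in 3 of 20 ATF4 pathway genes and 2 of 16 tRNA synthetase genes, in none of 21 amino acid transporter or 12 serine and one-carbon genes, and in 1.49% of tested genes and 3.14% of all windows. When any window of a gene counted, the motif was present in 5 of 20 ATF4 pathway genes, and in 18.8% of the synthetase, 9.52% of the transporter and 8.33% of the serine and one-carbon genes, against 2.46% of tested genes. A match is a description of letters and was not tested for binding.

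In all, 9188 of 15060 tested genes (61.0%) differed between the sgUTX and sgLuc libraries in DMSO at an adjusted p under 0.05 by edgeR's quasi-likelihood test. Of all tested genes 28.7% were higher (4325) and 32.3% lower (4863) with sgUTX. These are the shares against which the counts of gene groups are read. In 32.3% of genes all 4 sgUTX libraries lay above both sgLuc libraries, and in 35.7% below, so a lack of overlap is common here. Of the 9188 called genes 8980 had groups that did not overlap, so for a called gene this adds little. Changes of at least 2-fold were more often falls: 6.86% of tested genes rose (1033) and 13.5% fell (2034) by that much. Protein coding genes made up 12465 of those tested, of which 3909 were higher and 4233 lower. Of 1656 long noncoding genes 227 were higher and 421 lower, with a median log2 fold change of -0.07. The median over all genes was -0.01. Scaling by library size alone, in place of TMM factors, moved that median to 0.26 and made 66.7% of the called genes higher, against 47.1%, so directions of genes with small changes depend on the scaling. Chromosome medians, over genes with at least 1 CPM, lay between -0.17 (X) and 0.09 (16).

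Each guide was also set against sgLuc alone. With sgUTX_2, 60.4% of genes were called (28.2% higher, 32.2% lower), and with sgUTX_4 59.7% (28.5% higher, 31.2% lower). In the same direction with both guides were 3733 higher (24.8%) and 4225 lower genes (28.1%), while 12 (0.0797%) were called in opposite directions. The guides share the sgLuc libraries, so these overlaps are descriptions.

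The bar chart of gene lists gives the share of members called in each direction beside the share over all genes.

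**Figure D1:**
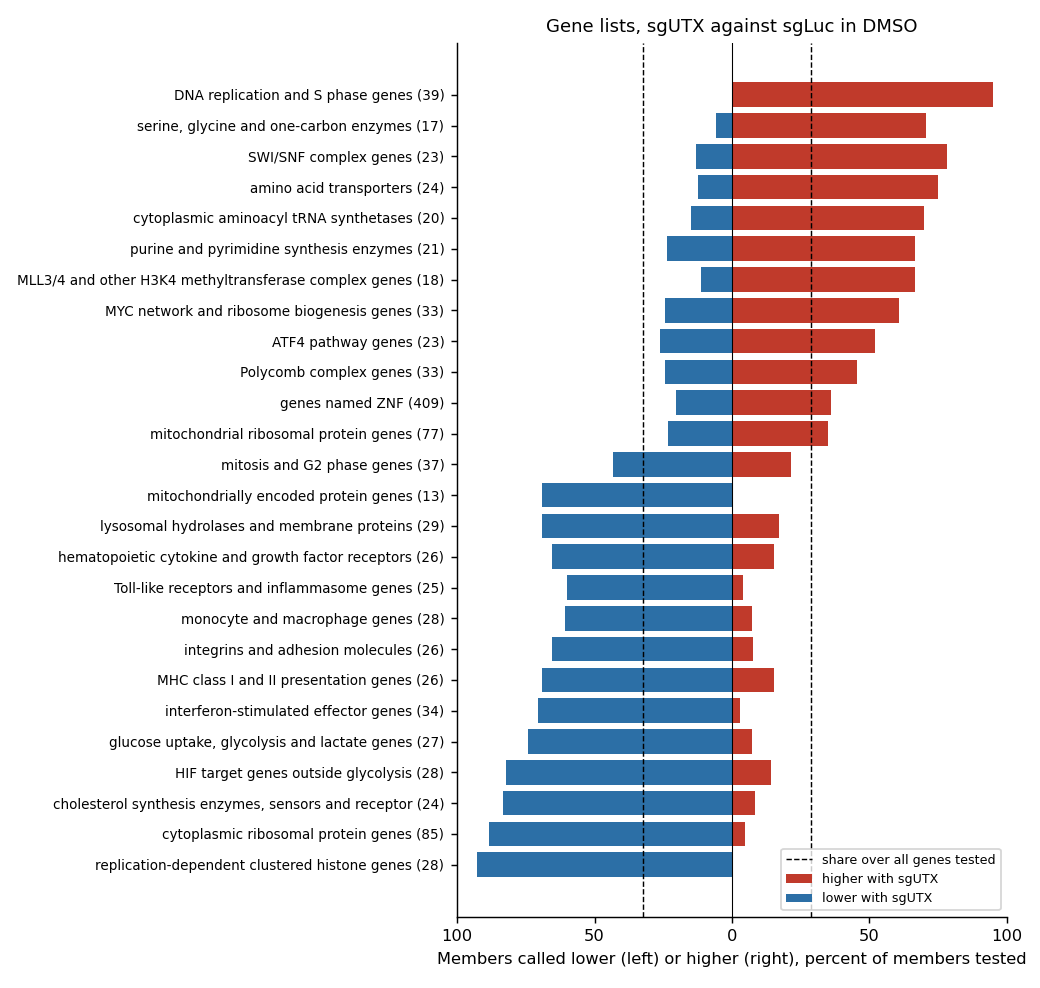
Share of tested members of 26 gene lists called higher (right) or lower (left) in the 4 sgUTX than in the 2 sgLuc DMSO libraries, in percent, with the number tested in brackets. Dashed lines mark the shares over all tested genes, 28.7% higher and 32.3% lower; S phase genes have the largest share higher (37 of 39). The bar of clustered histones covers only the 28 of 71 genes that passed the filter on low counts, which they could pass through the sgLuc libraries alone.

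Genes of glucose use were lower with both guides. Glycolysis splits glucose into pyruvate, and lactate is the product when pyruvate stays outside the mitochondria. Of 27 genes of glucose uptake, glycolysis and lactate handling 20 were lower and 2 higher (32.3% and 28.7% of all genes), with a median log2 fold change of -0.85 against -0.01 for all genes. Falls were found at nearly every step. The glucose carrier SLC2A3 was measured at 248 and 314 CPM with sgLuc, 55.2 and 55.5 with sgUTX_2 and 44.3 and 43.3 with sgUTX_4, a log2 fold change of -2.50 (SE 0.11, edgeR adjusted p = 1.03e-10). The hexokinases HK1 and HK2, which trap glucose in the cell, changed by -0.93 and -0.88, and the isomerase GPI by -1.55. ALDOC, an aldolase that splits the phosphorylated sugar, was measured at 359 and 386 CPM with sgLuc, 11.1 and 12.8 with sgUTX_2 and 15.5 and 7.29 with sgUTX_4. All 4 sgUTX libraries lay far below both sgLuc libraries (log2 fold change -4.99, SE 0.25, edgeR adjusted p = 1.50e-07). In the later steps TPI1 changed by -0.94, GAPDH by -0.88, PGK1 by -0.98, PGAM1 by -0.50, ENO1 by -1.01 and PKM by -0.55, the last a call lost at -0.52 without the second sgLuc library, at -0.47 without a filter on low counts and at -0.27 with library size alone. ENO2, an enolase isoform named for neurons, was measured at 30.2 and 34.3 CPM with sgLuc, 1.47 and 1.67 with sgUTX_2 and 1.54 and 0.972 with sgUTX_4. Its log2 fold change of -4.49 was more than 3 log2 units below that of ENO1, whose product carries out the same step.

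Of the phosphofructokinases, which commit sugar to glycolysis, only PFKM passed the test. It was lower (-0.49), about as much as PGAM1, a call lost with library size alone (-0.22). PFKL and PFKP stood at 255 and 149 CPM with sgLuc and 233 and 137 with sgUTX. PFKL was called lower with the guides averaged in a model of 6 groups (-0.14) and without the second sgUTX_2 library (-0.18). The bifunctional enzymes that set the level of the phosphofructokinases' activator split: PFKFB4 fell (-5.14) and PFKFB3 rose (0.53). The lactate carriers split as well. SLC16A3, the carrier of lactate-exporting cells, changed by -0.65, and SLC16A1 was measured at 54.3 and 51.1 CPM with sgLuc, 108 and 107 with sgUTX_2 and 103 and 107 with sgUTX_4. Every sgUTX library lay above both sgLuc libraries for SLC16A1, whose log2 fold change was 1.01 (edgeR adjusted p = 2.72e-11).

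**Figure D2:**
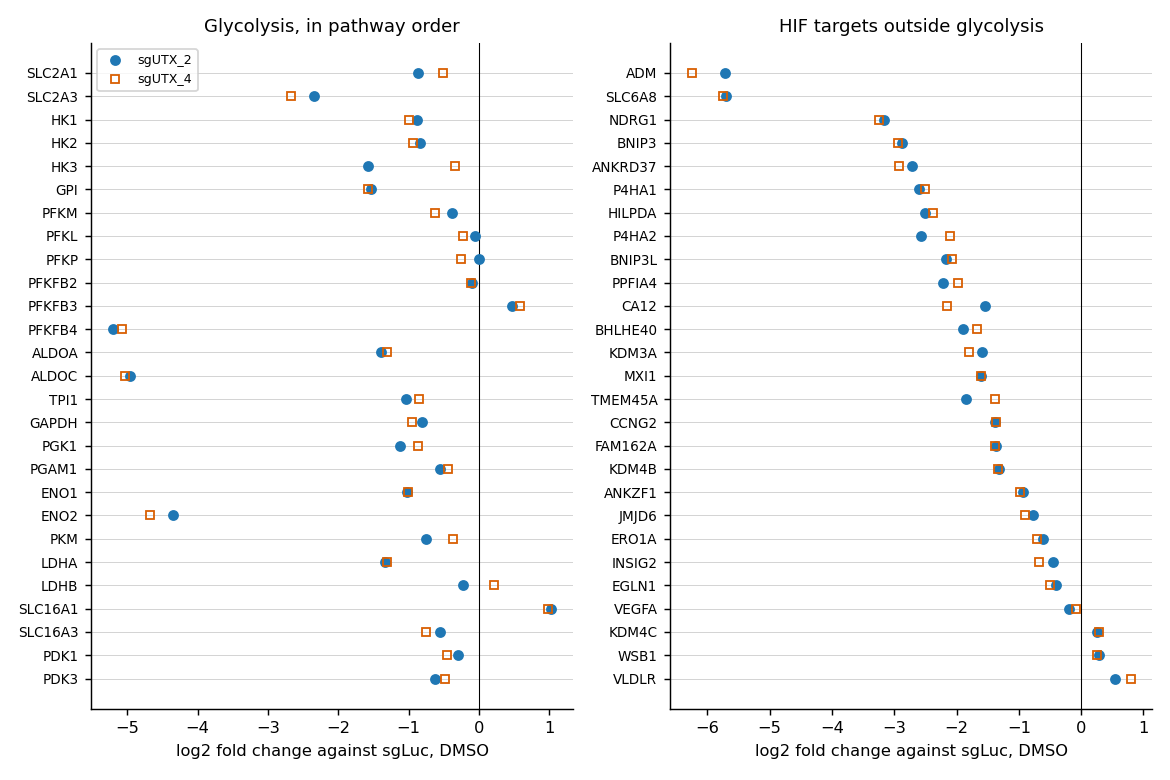
Log2 fold change against sgLuc in DMSO for each guide (filled circles sgUTX_2, open squares sgUTX_4), for 27 glycolysis genes in pathway order (left) and 27 HIF target genes sorted by change (right; STC2, with 1 count in the sgLuc libraries, is left out). ALDOC, ENO2 and PFKFB4 lie below -4 with both guides, and PFKFB3 and SLC16A1 lie above 0.

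Targets of hypoxia-inducible factors outside glycolysis fell further. Of 28 such genes 23 were lower and 4 higher (median -1.60). The secreted peptide gene ADM was measured at 30.1 and 41.8 CPM with sgLuc, 0.786 and 0.570 with sgUTX_2 and 0.772 and 0.162 with sgUTX_4. NDRG1, a stress-responsive gene, was measured at 1278 and 1459 CPM with sgLuc, 154 and 152 with sgUTX_2 and 151 and 138 with sgUTX_4. Both genes had every sgUTX library far below both sgLuc libraries, with log2 fold changes of -5.94 (SE 0.24) and -3.20 (SE 0.07). The mitophagy receptors BNIP3 and BNIP3L, which tag mitochondria for removal, changed by -2.90 and -2.12. P4HA1, which hydroxylates collagen, changed by -2.55, the lipid droplet protein gene HILPDA by -2.44, the transcription factor gene BHLHE40 by -1.79 and the MYC antagonist gene MXI1 by -1.61. The demethylase genes KDM3A and KDM4B, themselves HIF targets, changed by -1.69 and -1.33. VEGFA, the angiogenic factor, did not pass the test, at 133 CPM with sgLuc and 121 with sgUTX. With the guides averaged in a model of 6 groups it was called lower (-0.14). VLDLR, a lipoprotein receptor gene, rose (0.67).

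Of 8 genes that sense oxygen or form HIF 3 were higher and 3 lower (median -0.06). HIF1A, the factor's regulated subunit, was measured at 59.8 and 54.3 CPM with sgLuc, 53.8 and 49.8 with sgUTX_2 and 59.6 and 58.2 with sgUTX_4, and the groups overlapped (edgeR adjusted p = 0.687). Its partner gene ARNT fell (-0.51), the ubiquitin ligase gene VHL, which marks HIF for destruction, rose (0.39), and the oxygen-sensing hydroxylase gene EGLN1 fell (-0.45). With SGC0946 the glycolysis and HIF target lists had 21 and 22 members lower in sgUTX (29.3% of all genes), with medians of -0.63 and -0.93. HILPDA differed between treatments, from -2.44 in DMSO to -0.30 with SGC0946 (difference 2.15, edgeR adjusted p = 1.44e-10).

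Genes that supply amino acids were higher with both guides. Of 24 amino acid transporter genes 18 were higher and 3 lower (28.7% and 32.3% of all genes), with a median of 0.76. SLC7A5 and SLC3A2, whose products pair to import large neutral amino acids, changed by 1.76 and 1.53. The cystine carrier SLC7A11, which feeds glutathione synthesis, was measured at 37.3 and 29.4 CPM with sgLuc, 178 and 184 with sgUTX_2 and 262 and 239 with sgUTX_4. Every sgUTX library lay above both sgLuc libraries (log2 fold change 2.69). SLC7A1, an arginine and lysine carrier, was measured at 125 and 127 CPM with sgLuc, 383 and 401 with sgUTX_2 and 392 and 386 with sgUTX_4, with no overlap (log2 fold change 1.63, SE 0.07, edgeR adjusted p = 1.50e-14). The glutamine carriers SLC38A1 and SLC38A2 changed by 1.53 and 0.69, and the glycine carrier SLC6A9 by 2.40. The transporters that fell were SLC1A3, a glutamate carrier (-2.01), SLC43A2 (-1.77) and SLC7A7 (-0.46), whose call was lost without either sgLuc library and under several other alternatives.

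Of 17 enzymes that make serine or carry its one-carbon units 12 were higher and 1 lower (median 0.92). PSAT1, the second enzyme of serine synthesis, was measured at 193 and 199.8 CPM with sgLuc, 509 and 464 with sgUTX_2 and 584 and 529.7 with sgUTX_4, all sgUTX libraries above all sgLuc libraries (log2 fold change 1.41). PSPH, the last enzyme of that path, changed by 1.06. PHGDH, the first, did not pass the test (363 CPM with sgLuc and 515 with sgUTX). It was called higher with the 6 DMSO libraries alone (0.51), with library size alone (0.78) and with the guides averaged in a model of 6 groups (0.50). In mitochondria MTHFD1L changed by 1.31 and ALDH1L2 by 1.43, a call lost without either sgLuc library. MAT2A, which makes the methyl donor S-adenosylmethionine from methionine, rose (1.35).

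Of 20 cytoplasmic tRNA synthetases, which load amino acids onto tRNA, 14 were higher and 3 lower (median 0.54). MARS, for methionine, changed by 1.41, IARS by 1.12 and GARS by 0.94. DARS, for aspartate, was measured at 306 and 307 CPM with sgLuc, 164 and 156 with sgUTX_2 and 135 and 139 with sgUTX_4, lower in every sgUTX library (-1.05), and QARS, for glutamine, changed by -0.66. These sets overlap in part with the targets of ATF4, a transcription factor made when amino acids or protein folding fail. Of 23 ATF4 pathway genes 12 were higher and 6 lower (median 0.50). CHAC1, which breaks down glutathione, changed by 2.63, SESN2, which restrains the growth kinase mTORC1, by 1.75, GPT2, which makes alanine, by 1.60, and the pseudokinase gene TRIB3 by 1.43. ATF4 itself was measured at 874 and 912 CPM with sgLuc, 1022 and 965 with sgUTX_2 and 857 and 866 with sgUTX_4, with overlapping groups (edgeR adjusted p = 0.543). The pathway's brake PPP1R15A, which restores translation, fell (-1.41). DDIT3, the stress transcription factor, also fell (-0.51), a call lost at -0.36 without the second sgLuc library and at -0.23 with library size alone. DDIT3 shares 39.6% of its exonic bases with MARS, so the values of both genes are uncertain. With SGC0946 the transporter, serine and synthetase lists had medians of 0.83, 0.84 and 0.59 in sgUTX against sgLuc.

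Most tested nucleotide synthesis genes were higher. Of 21 purine and pyrimidine enzymes 14 were higher and 5 lower (median 0.42), with 3 lower without the second sgLuc library. PFAS, of the purine path, changed by 1.34, CTPS1, which makes CTP, by 1.13, and CAD, which opens the pyrimidine path, by 0.89. IMPDH2, the rate-limiting enzyme of guanine nucleotide synthesis, was measured at 1000 and 1059 CPM with sgLuc, 544 and 564 with sgUTX_2 and 472 and 513 with sgUTX_4. It fell by 0.98 on the log2 scale, with no overlap between groups, and with SGC0946 it was 0.18 (difference between treatments 1.15, edgeR adjusted p = 7.37e-09).

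DNA replication genes were higher, and mitosis genes had no common direction. Of 39 S phase genes 37 were higher and 0 lower (28.7% and 32.3% of all genes), with a median of 1.19. The helicase subunits MCM2 to MCM7, which unwind DNA, changed by 0.92 (MCM7, 302 to 571 CPM) to 1.30 (MCM3, 212 to 520.1 CPM). CLSPN, which signals stalled forks, was measured at 11.1 and 8.93 CPM with sgLuc, 42.4 and 46.8 with sgUTX_2 and 40.7 and 46.1 with sgUTX_4. All sgUTX libraries lay above both sgLuc libraries, more than 3-fold higher (log2 fold change 2.13, SE 0.11, edgeR adjusted p = 3.27e-13). E2F1 and E2F2, the activator transcription factors of the G1 to S transition, changed by 1.77 and 1.66, and CCNE1, the cyclin that drives it, by 1.91. POLA1, the catalytic subunit of the polymerase that primes DNA, changed by 1.59. CDT1, which licenses origins, was the member with the lowest value and did not pass the test (366 CPM with sgLuc, 302 with sgUTX). With the guides averaged in a model of 6 groups it was called lower (-0.29).

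Of 37 mitosis and G2 genes 8 were higher and 16 lower (median -0.13). With library size alone the counts were 17 higher and 8 lower (median 0.15), so this list has no direction independent of the scaling. UBE2C, a ubiquitin conjugase of mitotic exit, fell (-0.83), as did CDC25C (-0.81), the phosphatase that starts mitosis, and CCNB2 (-0.69), a mitotic cyclin. MKI67, whose product coats mitotic chromosomes, was measured at 161 and 139 CPM with sgLuc, 244 and 284 with sgUTX_2 and 270.3 and 264 with sgUTX_4, all sgUTX libraries above both sgLuc libraries (0.82). CDK1, the mitotic kinase, and TOP2A did not pass the test, at 113 and 498 CPM with sgLuc and 119 and 504 with sgUTX.

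Of 18 genes that gate entry into the cycle 7 were higher and 8 lower (median -0.24). The CDK inhibitor gene CDKN2C was measured at 202 and 219.7 CPM with sgLuc, 107 and 98.8 with sgUTX_2 and 117 and 105 with sgUTX_4, lower in every sgUTX library (-0.98), and CDKN1B, another inhibitor, changed by -0.64. CCND3, a D cyclin of blood cells, was measured at 230.5 and 224 CPM with sgLuc, 482 and 445 with sgUTX_2 and 475 and 486 with sgUTX_4, higher in every sgUTX library (1.05). RBL1, a relative of the retinoblastoma protein, rose (1.39), while RB1 fell (-0.28), a call lost with library size alone. For CCND3 the direction turned with SGC0946, where the log2 fold change was -0.47 (difference -1.53, edgeR adjusted p = 3.93e-12).

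Clustered histone genes supply histones in S phase, and their transcripts mostly end without a poly(A) tail. Whether RNA was selected by that tail is not given in the sources used here. Of 28 tested, 26 were lower and 0 higher (median -3.18). Only 28 of 71 listed genes passed the filter on low counts, which they could pass through the sgLuc libraries alone, so the direction was in part fixed by the filter and the count describes these members only. Their summed level was 168.6 CPM in the first and 369.9 CPM in the second sgLuc library, against 30.1 to 39.4 CPM in the sgUTX libraries. Without the second sgLuc library 13 were lower and 1 higher (median -1.49), and without the first 40 of 40 tested were lower (median -4.09). HIST1H1C, a linker histone gene, was measured at 28.6 and 48.4 CPM with sgLuc, 3.98 and 3.46 with sgUTX_2 and 3.80 and 3.78 with sgUTX_4. HIST1H2BK, a core histone gene known to give polyadenylated transcripts, was measured at 38.5 and 53.5 CPM with sgLuc, 12 and 10.1 with sgUTX_2 and 12 and 12.4 with sgUTX_4. Neither gene's groups overlapped (log2 fold changes -3.35 and -1.98). With SGC0946 9 of 28 were lower in sgUTX (median -0.85).

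Ribosome genes split by function. Of 33 MYC network and ribosome biogenesis genes 20 were higher and 8 lower (median 0.60), and of 85 cytoplasmic ribosomal protein genes 75 were lower and 4 higher (median -0.90). UTP20, which processes the small subunit's RNA, was measured at 14.5 and 14 CPM with sgLuc, 38.8 and 50.6 with sgUTX_2 and 46.2 and 42.4 with sgUTX_4, higher in every sgUTX library (1.64). POLR1A, the large subunit of the polymerase that transcribes ribosomal RNA, changed by 1.18. RPS6, a protein of the small subunit, was measured at 7054 and 8804 CPM with sgLuc, 2599 and 2378 with sgUTX_2 and 2932 and 2603 with sgUTX_4, lower in every sgUTX library (-1.59). MYC fell by 0.25 on the log2 scale in DMSO, a direction that turned with library size alone (0.02), and was 0.82 with SGC0946. In mitochondria, of 13 protein genes of the mitochondrial genome 9 were lower and 0 higher (median -0.46), led by MT-ND3 (-1.07), a complex I subunit. The nuclear genes of complex I had 6 higher and 8 lower of 37, against 19 and 4 with library size alone and 11 higher without the second sgUTX_2 library.

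**Figure D3:**
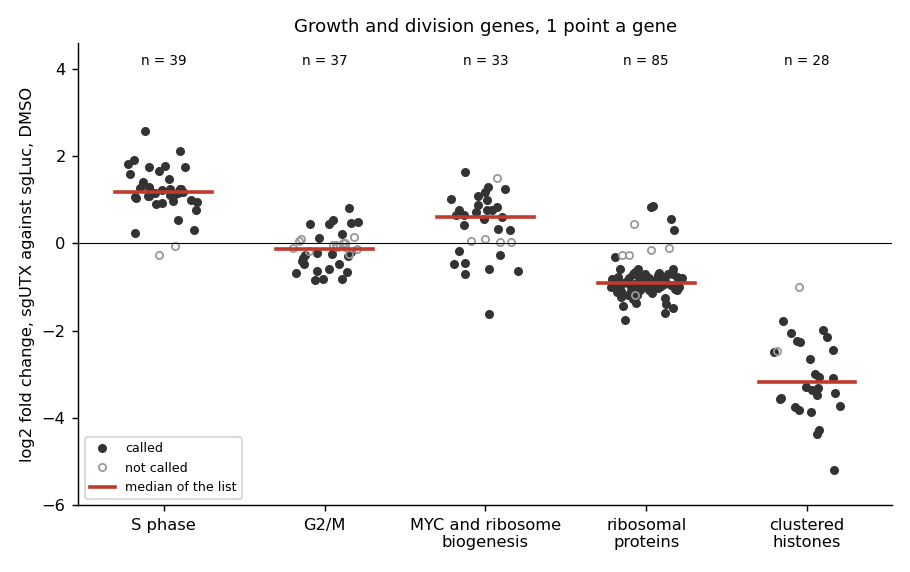
Log2 fold change of sgUTX against sgLuc in DMSO for the tested members of 5 lists, with 1 point for each gene, filled where the gene was called, and red lines at the list medians. Medians run from 1.19 for S phase genes to -3.18 for the 28 clustered histone genes that passed the filter on low counts, and G2/M genes lie on both sides of 0.

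Of 24 cholesterol synthesis genes 20 were lower and 2 higher (median -0.91). MSMO1, a sterol oxidase, was measured at 144 and 148 CPM with sgLuc, 20.2 and 19.5 with sgUTX_2 and 34.8 and 18.9 with sgUTX_4, and HMGCS1, which makes the precursor of mevalonate, at 190.4 and 180.2 CPM with sgLuc, 51.5 and 56.9 with sgUTX_2 and 70.2 and 35.1 with sgUTX_4. Neither gene's groups overlapped, and the log2 fold changes were -2.65 and -1.79. SREBF2, the factor that drives the pathway, changed by -0.29, a call lost with library size alone. Of 9 genes of cholesterol efflux and of the sterol receptors LXR and their targets 6 were lower and 1 higher. The exporter ABCG1 changed by -2.01 and MYLIP, a ubiquitin ligase of cholesterol balance, by -2.08. Fatty acid synthesis genes had no common direction (7 higher and 6 lower of 15). There ACSS2, which makes acetyl-CoA from acetate, was measured at 86.3 and 92 CPM with sgLuc, 14.5 and 15.5 with sgUTX_2 and 15.4 and 13.2 with sgUTX_4, lower in every sgUTX library (-2.60), while ACACA and FASN, the committed enzymes, rose (0.67 and 0.44).

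Genes of the cell surface and of contact with other cells were lower. Of 26 integrins and adhesion genes 17 were lower and 2 higher (median -1.13). ITGAX, the alpha chain of a complement receptor, was measured at 88.9 and 86.9 CPM with sgLuc, 9.82 and 16.7 with sgUTX_2 and 7.99 and 11.6 with sgUTX_4, and SELPLG, the ligand of selectins, at 217 and 239 CPM with sgLuc, 52.8 and 48.6 with sgUTX_2 and 50.5 and 48.1 with sgUTX_4. Neither gene's groups overlapped (-2.92 and -2.19). CD44, the hyaluronan receptor, changed by -1.28, and ITGB2, the shared beta chain of leukocyte integrins, by -1.34. The members that rose were ITGB1 (0.73) and ITGAV (3.46), which can pair to bind matrix proteins. ITGAV was at 0.187 and 0.833 CPM with sgLuc, 4.76 and 5.17 with sgUTX_2 and 5.90 and 5.62 with sgUTX_4, with no overlap. 

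Of 26 cytokine and growth factor receptor genes 17 were lower and 4 higher (median -0.61). CSF1R, the receptor of the macrophage growth factor, was measured at 69 and 59.7 CPM with sgLuc, 9.87 and 11.7 with sgUTX_2 and 18.6 and 12.2 with sgUTX_4, lower in every sgUTX library (-2.31). IL3RA, the interleukin 3 receptor alpha chain and a surface marker of leukemia stem cells, changed by -1.51, CSF3R, the receptor of G-CSF, by -0.84, and FLT3 by -0.52. CSF2RB, the beta chain that IL3RA pairs with, rose (0.31). Downstream of these receptors STAT5A fell, from 24.2 ± 2.67 to 4.66 ± 1.04 CPM (mean ± SD, n = 2 and 4 libraries, -2.38), and SH2B3, which restrains their kinases, rose from 34.3 ± 1.83 to 101 ± 5.86 CPM (1.56). SOCS2, a feedback inhibitor, fell in DMSO (-0.84) and was higher with SGC0946 (2.41, difference 3.25, edgeR adjusted p = 1.63e-12). The chemokine receptor CXCR4, which holds leukemia cells in bone marrow, was measured at 252 and 278 CPM with sgLuc, 73.7 and 70.8 with sgUTX_2 and 81.2 and 78.2 with sgUTX_4, lower in every sgUTX library (-1.80).

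Innate and interferon genes were lower as well. Of 25 Toll-like receptor and inflammasome genes 15 were lower and 1 higher (median -0.61), and of 34 interferon-stimulated genes 24 were lower and 1 higher (median -1.31). The inflammasome sensor gene NLRP3 was measured at 268 and 264 CPM with sgLuc, 114 and 114 with sgUTX_2 and 121 and 117 with sgUTX_4, and the tether gene BST2, which holds virus particles at the membrane, at 133 and 136 CPM with sgLuc, 29.2 and 30.2 with sgUTX_2 and 21.7 and 20.7 with sgUTX_4. Neither gene's groups overlapped (-1.20 and -2.39). USP18, which removes ISG15 from proteins and restrains the interferon receptor, was the interferon-stimulated gene that rose (1.32). Both chains of the interferon gamma receptor were lower, with log2 fold changes of -1.02 for IFNGR1 and -0.89 for IFNGR2. In antigen presentation, where HLA genes are near-identical copies and their values uncertain, 18 of 26 genes were lower and 4 higher. HLA-DRA, the alpha chain of HLA-DR, was measured at 57.7 and 61.9 CPM with sgLuc, 0.835 and 1.36 with sgUTX_2 and 1.65 and 0.972 with sgUTX_4, lower in every sgUTX library (-5.63). RFXAP and RFX5, subunits of the factor that binds MHC class II promoters, were among those that rose (1.26 and 0.26, the second a call lost at 0.18 without the first sgLuc library), while the class I light chain B2M fell (-0.62).

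Of 13 tested genes of the S100 family, calcium-binding proteins of which some act as inflammatory signals, 8 were lower and 0 higher (median -1.80). Only 8 of the 13 reached 5 CPM in either DMSO group. With sgUTX_2 11 were lower and 0 higher, and with sgUTX_4 8 and 1. Their summed level was 2223 and 2121 CPM with sgLuc, 1153 and 900.4 with sgUTX_2 and 2303 and 1744 with sgUTX_4. The sum with sgUTX_4 thus overlapped that with sgLuc. Metal-binding and lysosomal genes were lower too. All 5 tested metallothionein genes, whose products bind zinc and copper, were lower. MT2A was measured at 256 and 236 CPM with sgLuc, 14.7 and 11.3 with sgUTX_2 and 23.5 and 21 with sgUTX_4, with no overlap (-3.82). Metallothioneins are near-identical copies, so single values are uncertain. Of 29 lysosomal genes 20 were lower and 5 higher (median -0.53). TPP1, a peptidase, was measured at 356 and 366 CPM with sgLuc, 118 and 127 with sgUTX_2 and 119 and 125 with sgUTX_4, lower in every sgUTX library (-1.56), and MCOLN1, a lysosomal calcium channel, rose (1.23). Of 18 NRF2 targets, which protect from oxidation, 12 were lower and 3 higher (median -0.32): BLVRB fell (-2.85), and TXNRD1 and GCLM rose (0.73 and 0.68).

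Transcription factors of the blood lineages had no common direction. Of 38 tested 6 were higher and 14 lower (median -0.09), against 17 and 9 (median 0.19) with library size alone. CEBPE, a factor of late granulocyte maturation, was measured at 40.8 and 36.3 CPM with sgLuc, 108 and 99.2 with sgUTX_2 and 98.3 and 102 with sgUTX_4, higher in every sgUTX library (1.40). RUNX1 rose (0.61), and IRF8, a monocyte factor, fell (-0.75). CEBPE turned with treatment, with -0.40 under SGC0946 (difference -1.80, edgeR adjusted p = 2.41e-09). MEIS1, the partner of HOXA proteins, was measured at 38.8 and 41 CPM with sgLuc, 18.8 and 19.5 with sgUTX_2 and 26.6 and 24.6 with sgUTX_4, lower in every sgUTX library (-0.84). With SGC0946 MEIS1 was higher in sgUTX (1.93, difference 2.76, edgeR adjusted p = 1.67e-06).

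Chromatin genes are given by complex. Of 18 genes of the H3K4 methyltransferase complexes 12 were higher and 2 lower (median 0.41), and of 23 SWI/SNF remodelling genes 18 were higher and 3 lower (median 0.37). KMT2D, the enzyme of UTX's own complex, was measured at 98.7 and 92.7 CPM with sgLuc, 139 and 164 with sgUTX_2 and 169 and 140.1 with sgUTX_4, higher in every sgUTX library (0.68), and PBRM1, a SWI/SNF subunit, changed by 0.84. SMARCD3, a variant subunit, was 1 of the 3 that fell, at 27 ± 0.180 CPM with sgLuc and 7.64 ± 1.10 with sgUTX (mean ± SD, n = 2 and 4, -1.81). Of 33 Polycomb genes 15 were higher and 8 lower (median 0.16). EZH2 rose (1.43) with its partners SUZ12 (0.46) and EED (0.73). Its relative EZH1 did not pass the test, at 27.2 and 24.6 CPM. Histone lysine demethylases had 4 higher and 8 lower of 20 (median -0.05), acetyltransferases and deacetylases 7 and 11 of 26 (median -0.08), and DOT1L and super elongation complex genes 8 and 7 of 23 (median 0.02). Of 14 DNA methylation genes 6 were higher and 6 lower (median -0.11). DNMT1, which copies DNA methylation at replication, was measured at 152 and 140.4 CPM with sgLuc, 399 and 455 with sgUTX_2 and 398 and 422 with sgUTX_4, higher in every sgUTX library (1.51). The de novo enzymes split, with DNMT3A at -0.57 and DNMT3B at 0.52, and the demethylase genes as well, with TET1 at -0.86 and TET3 at 0.90.

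Genes of cell death and of cytarabine handling are given because the title of the series speaks of therapeutic responses. Of 15 BCL2 family genes 8 were higher and 4 lower (median 0.35). The anti-apoptotic BCL2, target of venetoclax, was measured at 215 and 215 CPM with sgLuc, 292 and 314 with sgUTX_2 and 256 and 269.6 with sgUTX_4, with no overlap (0.40), and PMAIP1, which opposes MCL1, rose (1.04). MCL1 did not pass the test (245 CPM with sgLuc and 258 with sgUTX). Of 12 genes of cytarabine handling 4 were higher and 2 lower (median -0.01). CDA, the deaminase that inactivates cytarabine, was measured at 101 and 102 CPM with sgLuc, 37 and 26.6 with sgUTX_2 and 48.1 and 38 with sgUTX_4, lower in every sgUTX library (-1.45). The kinase DCK, which activates the drug, and SAMHD1, which cleaves its triphosphate, did not pass the test: DCK stood at 105 CPM with sgLuc and 105 with sgUTX, and SAMHD1 at 102 and 103. With library size alone both were called higher, at 0.27 and 0.29. Among 24 surface proteins that leukemia therapies have been aimed at 12 were lower and 3 higher (median -0.36). CD70, a ligand of the TNF family, was measured at 73.5 and 83.2 CPM with sgLuc, 11.6 and 12.2 with sgUTX_2 and 6.01 and 6.43 with sgUTX_4, lower in every sgUTX library (-3.09), while CD33, the target of gemtuzumab ozogamicin, changed by -0.19, a value that scaling by library size alone turned above 0 (0.08). Its call was lost without the first sgLuc library (-0.13) and without a filter on low counts (-0.11).

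Targets of p53, the DNA damage factor, went both ways, 8 higher and 8 lower of 24 (median 0.07). BTG2, which restrains division, was measured at 38.5 and 36.5 CPM with sgLuc, 6.39 and 7.06 with sgUTX_2 and 8.16 and 7.02 with sgUTX_4, lower in every sgUTX library (-2.39). AEN, a nuclease of apoptosis, was measured at 13.3 and 15.6 CPM with sgLuc, 57.5 and 50.2 with sgUTX_2 and 51.8 and 57.1 with sgUTX_4, higher in every sgUTX library (1.91), and MDM2, the ligase that removes p53, rose (0.84). Of 37 proteasome genes 20 were higher and 7 lower (median 0.26). PSMD1, of the cap that receives proteins, changed by 1.01, while PSMB9, a catalytic subunit of the immunoproteasome, fell (-0.81). Of 409 zinc finger genes of the ZNF family 147 were higher and 83 lower (median 0.18).

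Of 25 MAPK feedback and early response genes of growth signalling 10 were higher and 6 lower, with a median of -0.21. EGR1 was measured at 6.41 and 6.36 CPM with sgLuc, 37.7 and 37 with sgUTX_2 and 50.5 and 46.1 with sgUTX_4, higher in every sgUTX library (2.74). FOS and JUN, which form the factor AP-1, fell (-1.93 and -1.64). With SGC0946 the sgUTX libraries were at 9.71 CPM of EGR1 and the sgLuc libraries at 8.10 (edgeR adjusted p = 0.155), and FOS and JUN changed by -3.39 and -3.36.

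The largest changes included genes outside these lists. JPH2, which joins membranes in muscle, was at 63.5 CPM with sgLuc, while the 4 sgUTX libraries held 6 counts in all. TBC1D30, a regulator of Rab proteins, was measured at 40.5 and 48.5 CPM with sgLuc, 0.442 and 0.833 with sgUTX_2 and 0.661 and 0.486 with sgUTX_4 (-6.16), and NFATC4, a transcription factor that calcineurin activates, at 13.3 and 9.01 CPM with sgLuc, 0.295 and 0.0877 with sgUTX_2 and 0.221 and 0.216 with sgUTX_4 (-5.76). Neither gene's groups overlapped. PNCK, a calmodulin-dependent kinase, was at 8.13 CPM with sgLuc, while the 4 sgUTX libraries also held 6 counts in all. SLC6A8, the creatine carrier, changed by -5.73, ADSSL1, an enzyme of adenine nucleotide synthesis, by -5.18, SH3D21 by -4.84 and L1CAM, an adhesion protein, by -4.77. ADAM8, a surface protease, changed by -4.78 and -4.72 in DMSO and SGC0946. Among the rises LRRC4, a synaptic adhesion protein, was measured at 1.25 and 0.606 CPM with sgLuc, 7.66 and 5.35 with sgUTX_2 and 11.9 and 10.7 with sgUTX_4 and NLRP12, a sensor that restrains inflammation, at 2.55 and 2.04 CPM with sgLuc, 13.2 and 14.6 with sgUTX_2 and 13.1 and 15.3 with sgUTX_4. Both had every sgUTX library above both sgLuc libraries (3.20 and 2.60). With SGC0946 LRRC4 did not pass the test (10.1 CPM with sgLuc and 9.45 with sgUTX), and NLRP12 was lower in sgUTX (-1.27). The other large rises were SLC7A2, an arginine carrier (2.91), PRR22 (2.81), CCNE2, a cyclin of S phase entry (2.57), BTBD6 (2.42), HSD11B1, which activates cortisone (2.40), SLC16A6 (2.33), AMH, a hormone of the TGF beta family (2.30), and FAM81A (2.25). CCNE2 shares 37.1% of its exonic bases with INTS8, so its value is uncertain, as are those of PRR22, BTBD6 and SH3D21, which share 24.1%, 26.2% and 15.3% with neighbouring genes.

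Between the guides 526 genes (3.49%) differed by the same test, 259 higher and 267 lower with sgUTX_4. The count rested on single libraries, with 89 genes without the first sgUTX_4 library and 274 without the second sgUTX_2 library. Of 24 neutrophil granule genes 15 were higher with sgUTX_4 and 0 lower (1.72% and 1.77% of all genes), with a median log2 difference of 0.85. Without the first sgUTX_4 library 9 were higher (median 0.70), and without the second sgUTX_2 library 10. Against sgLuc, 1 were higher and 13 lower with sgUTX_2 (28.2% and 32.2% of all genes), and 10 and 7 with sgUTX_4 (28.5% and 31.2%). CTSG, a granule protease, was measured at 557 and 555 CPM with sgLuc, 359 and 287 with sgUTX_2 and 1018 and 814 with sgUTX_4, below the sgLuc libraries with one guide and above them with the other (log2 difference between guides 1.5, edgeR adjusted p = 0.000577). ELANE, neutrophil elastase, was at 154 and 158 CPM with sgLuc, 286 and 263 with sgUTX_2 and 516 and 508 with sgUTX_4, above the sgLuc libraries with both guides and furthest with sgUTX_4 (log2 difference between guides 0.90, edgeR adjusted p = 1.02e-11). PRTN3, a related protease, was at 440.1 and 408 CPM with sgLuc, 468 and 373 with sgUTX_2 and 910.5 and 699 with sgUTX_4, above the sgLuc libraries with sgUTX_4, while the sgUTX_2 libraries overlapped them (log2 difference between guides 0.94, edgeR adjusted p = 0.0251).

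Some monocyte genes also differed between guides. Of 28 monocyte and macrophage genes 6 were higher and 1 lower with sgUTX_4 than with sgUTX_2 (1.72% and 1.77% of all genes, median difference 0.24). Against sgLuc 21 were lower and 3 higher with sgUTX_2 (32.2% and 28.2% of all genes). With sgUTX_4 16 were lower and 6 higher (31.2% and 28.5%). FCN1, a lectin of monocytes, was at 5.04 and 2.80 CPM with sgLuc, 7.71 and 5.22 with sgUTX_2 and 26.2 and 27.1 with sgUTX_4, far above all others with sgUTX_4 (log2 difference 2.05, edgeR adjusted p = 1.13e-08). CST7, a protease inhibitor of white cells, was at 36.3 and 33.8 CPM with sgLuc, 8.20 and 9.03 with sgUTX_2 and 26.6 and 22.3 with sgUTX_4, lower than sgLuc with both guides and lowest with sgUTX_2 (log2 difference between guides 1.5, edgeR adjusted p = 2.15e-10). CCR2, the monocyte chemokine receptor, was at 11.8 and 13.9 CPM with sgLuc, 4.76 and 4.25 with sgUTX_2 and 12.7 and 12.9 with sgUTX_4, low with sgUTX_2 alone (log2 difference between guides 1.5, edgeR adjusted p = 2.93e-09). The alarmins S100A8 and S100A9, which form a dimer, differed by 1.67 (edgeR adjusted p = 0.0258) and 1.16 (edgeR adjusted p = 0.0357). S100A8 was at 226 and 189.5 CPM with sgLuc, 133 and 93.1 with sgUTX_2 and 433 and 288 with sgUTX_4. Among the 12 genes called in opposite directions against sgLuc were KDM6A, CTSG and S100A8. MPEG1, a pore protein of macrophages, had log2 fold changes of -0.39 with sgUTX_2 and 0.62 with sgUTX_4, NCF4, a subunit of the phagocyte oxidase, -0.19 and 0.15, and TFEC, a transcription factor of macrophages, -0.35 and 0.29. Each of these 3 differences between guides was called (1.00, 0.34 and 0.64, edgeR adjusted p = 3.68e-05, 0.000577 and 0.00411). The calls of PRTN3, S100A8, S100A9 and TFEC between guides were lost without the second sgUTX_2 library (0.78, 1.44, 0.98 and 0.58), and those of S100A8, S100A9 and TFEC also without the first sgUTX_4 library (1.35, 0.91 and 0.42). Those of PRTN3 and S100A9 were also lost without either sgLuc library, at differences of 0.94 and 1.16. With the 6 DMSO libraries alone the calls of S100A8 (1.68) and S100A9 (1.17) were lost, and that of S100A9 without a filter on low counts (1.16). The other genes called in opposite directions were AMPD3, CEACAM6, DEFA3, IGFBP7 and the pseudogenes DEFA8P and FRG2EP.

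**Figure D4:**
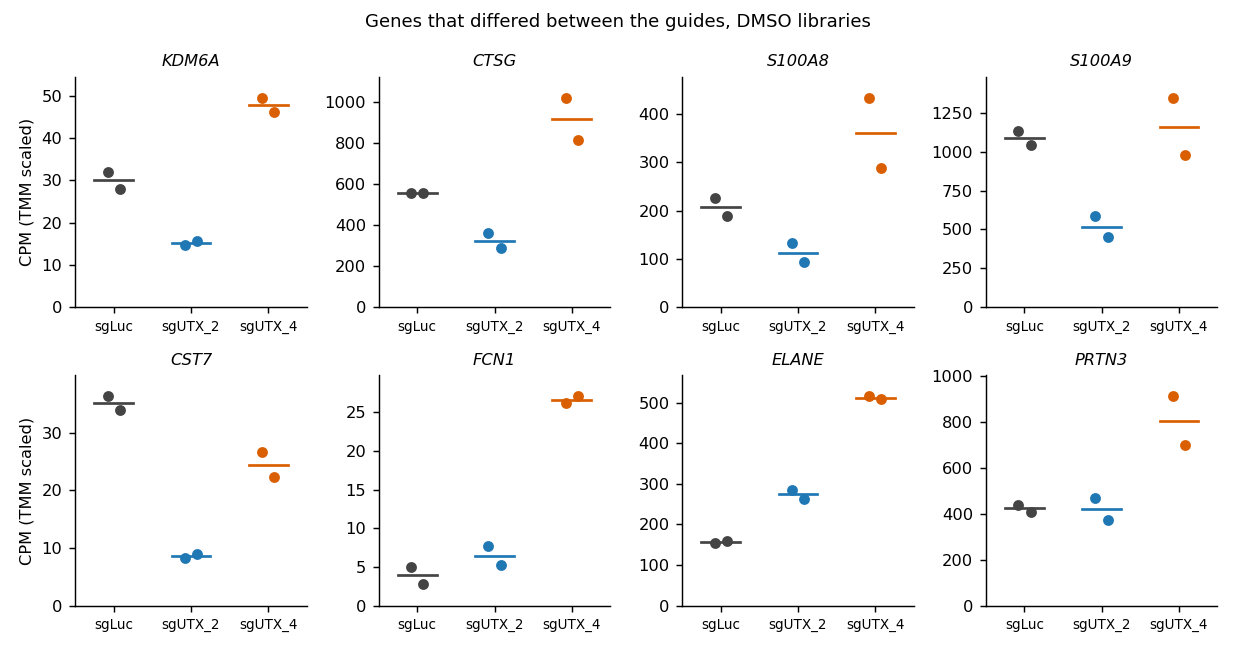
Scaled counts (CPM) of 8 genes that differed between sgUTX_4 and sgUTX_2, in each of the 6 DMSO libraries (points) with the mean of each guide (lines), on axes that start at 0. KDM6A, CTSG and S100A8 lie below sgLuc with sgUTX_2 and above it with sgUTX_4, and ELANE rises in both.

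The comparison of sgUTX with sgLuc in SGC0946 contrasts only the SGC0946 libraries. It came from the same fit of 12 libraries as the DMSO comparison, with a shared filter, scaling and estimate of spread. In it 56.9% of all genes were called. Of the 9188 genes called in DMSO 61.6% were called in the same direction with SGC0946 and 6.17% in the opposite direction. Among genes that fell at least 2-fold in DMSO 72.3% were called lower there too, and among those that rose at least 2-fold 63.2% were called higher. The difference between the 2 treatments was itself called for 34.8% of all genes. Of the lists, monocyte and macrophage genes had a median of -1.31 in DMSO, with 17 of 28 lower (32.3% of all genes). With SGC0946 the median was -2.61, with 28 of 28 lower (29.3% of all genes). Members could pass the filter on low counts through the sgLuc SGC0946 libraries alone, where the list summed to 16050 and 15860 CPM. The SGC0946 count was thus in part fixed by the filter, and 24 members were tested with the 6 DMSO libraries alone. For chemokine receptors, to which the same limit applies, the medians were -0.88 and -2.13. S phase genes had medians of 1.19 and 0.58, and ribosomal protein genes of -0.90 and -0.33.

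**Figure D5:**
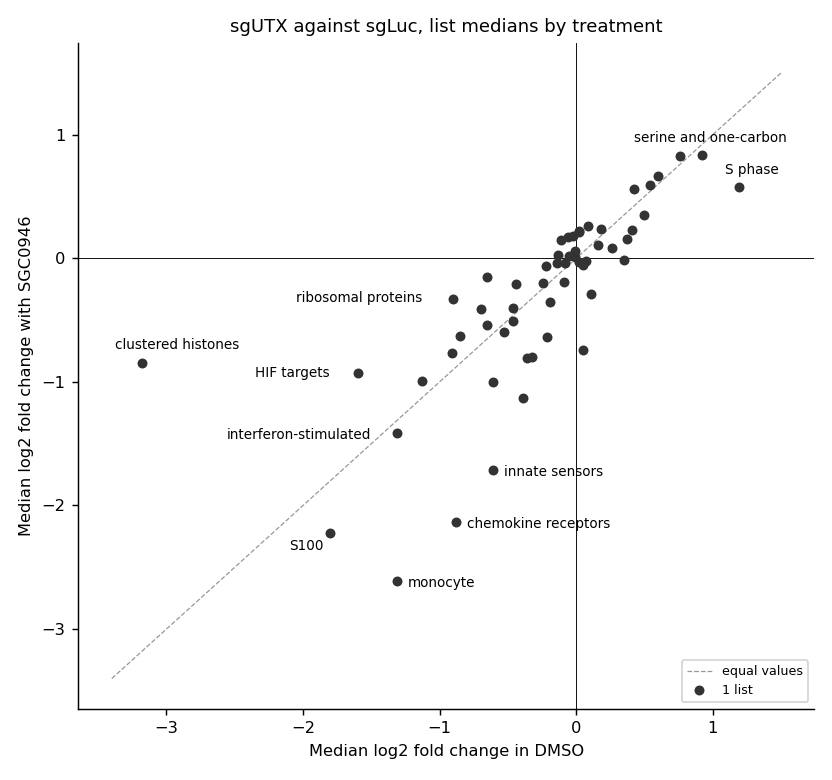
Median log2 fold change of sgUTX against sgLuc in DMSO (x axis) and with SGC0946 (y axis) for each list with at least 10 tested genes; the dashed line marks equal values. Monocyte, chemokine receptor and innate sensor lists lie below the line, and clustered histones and HIF targets above it.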

How the data were processed

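RNA of 12 OCI-AML2 libraries was sequenced as pairs of 150 bases. The authors deposited raw counts of reads for each gene, without normalization. The submitters' processing notes name STAR 2.5.1b and the build hg19, while all 58735 gene identifiers match GENCODE 29, which annotates GRCh38. The build of the counting is therefore uncertain. The sources used here do not give the counting program or its use of strand, and reads of near-identical or overlapping genes cannot be told apart.

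Counts were fitted with edgeR 4.0.16 under R 4.3.3, using TMM factors and filterByExpr. Robust two-sided quasi-likelihood tests were adjusted by Benjamini-Hochberg over 15060 genes and called at adjusted p under 0.05. The main model held 12 libraries in 4 groups (guide kind by treatment), so the 2 guides counted as replicates; a model of 6 groups gave single guides. Bracketed values after a gene are log2 fold changes of sgUTX against sgLuc in DMSO unless another comparison is named. The SE is the size of the fold change over the root of its F statistic. Total counts lay between 15480493 and 23262141 per library, and libraries of a group differed by more than sampling noise (chi-square per gene 2.85 to 6.29), so each was kept. The main fit was also run on simulated counts, in which few genes changed and all libraries otherwise had the same gene means. Those counts lack the composition differences between the sgLuc and sgUTX libraries, so they do not check the scaling under them.

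The comparison, its 64 gene lists and the alternatives were chosen with earlier results of these data known. Named genes were KDM6A, the 15 largest rises and falls called with both guides, up to 6 changed members of each list with at least 5 CPM or those that define a step, and genes that differed between guides, of which a part is described. Symbols are those of GENCODE 29, and promoter windows of RefSeq (GRCh38.p14) were matched by symbol. The rule of 1 window a gene was settled after another rule had been seen. Alternatives were other scalings and filters, DESeq2 1.42.0, a replicate block, fits of DMSO libraries alone and leaving out single libraries. Results of some single genes are not reported here.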

Additional observations from a re-analysis of the deposited data

Results flagged for a closer look

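For the 197 genes named in the report, 3 kinds of difference were looked for: between the guides, between the treatments where the called directions were opposite, and a single library apart from the other 3 among the 4 sgUTX DMSO libraries. None is explained here.

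Between the guides (sgUTX_4 minus sgUTX_2, log2, both in DMSO), 29 of the 197 genes differed by edgeR's test, against 3.49% of all tested genes. Some genes were named because they differed between the guides, so this count was in part fixed by the choice. The higher ones with sgUTX_4 were FCN1 (2.05), S100A8 (1.67), KDM6A (1.66), CCR2 (1.5), CST7 (1.5), CTSG (1.5), S100A9 (1.16), MPEG1 (1.00), PRTN3 (0.94), ELANE (0.90), LRRC4 (0.80), HSD11B1 (0.67), TFEC (0.64), MT-ND3 (0.63), PSPH (0.41), PKM (0.39), EGR1 (0.37) and NCF4 (0.34). The lower ones were CD70 (-0.94), BST2 (-0.49), ITGB2 (-0.47), CCNE2 (-0.39), SLC2A3 (-0.34), CD44 (-0.31), PFKP (-0.25), DARS (-0.22), ATF4 (-0.21), BCL2 (-0.21) and SLC16A3 (-0.21). All but KDM6A, CTSG, S100A8, MPEG1, NCF4 and TFEC were called in the same direction with each guide or not called with at least one of them.

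Between the treatments the change of sgUTX against sgLuc differed for 127 of the 197 named genes by edgeR's test, against 34.8% of all tested genes. Many genes were named for their change in DMSO, which enters this difference, so the count was in part fixed by the choice. Those called in opposite directions are given with the change in SGC0946 minus that in DMSO. SOCS2 (3.25), MEIS1 (2.76), CDKN2C (1.26), PFKM (1.20), IMPDH2 (1.15), MYC (1.07) and DNMT3A (0.92) were lower with sgUTX in DMSO and higher with SGC0946. NLRP12 (-3.87), SLC16A6 (-3.01), CEBPE (-1.80), CCND3 (-1.53), CSF2RB (-0.80) and VHL (-0.55) were the reverse.

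A single sgUTX DMSO library lay apart from the other 3 for 7 genes, where chance flags about 1 in 20 groups. In the second sgUTX_2 library these were FLT3 (72.3 CPM), GPT2 (171.5), ITGB1 (105) and PNCK (0.263). In the first sgUTX_4 library they were MSMO1 (34.8 CPM) and PSMB9 (30.6), and in the second sgUTX_4 library SLC1A3 (2.86).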

How the results depend on the processing

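The 9188 genes called in DMSO became 7773 to 9117 without single libraries, and 9829 with library size alone, where those higher rose in number from 4325 to 6557 through the scaling itself. The other scalings, filters and fits kept all counts of calls against sgLuc within 1.5 times. The count between guides, whose alternatives were chosen after seeing the data, went from 526 to 318 with the 6 DMSO libraries alone, which has fewer residual degrees of freedom, and to between 89 and 694 without single libraries. The replicate numbers share no more than a number (correlations of same-numbered deviations between the DMSO groups were -0.06, -0.009 and 0.073), and a replicate block gave 9072 calls and changed no call of a named gene. Among genes whose change against sgLuc is given, DESeq2 kept the side of the threshold for 192 and called 1 more. Signs turned for 2 changed genes with library size alone, CD33 (0.08) and MYC (0.02). Library size alone also lost 7 calls, DDIT3 (-0.23), KDM6B (-0.15), PFKM (-0.22), PKM (-0.27), RB1 (-0.00), SLC7A7 (-0.18) and SREBF2 (-0.02), and added 7, ATF4 (0.33), CDK1 (0.34), DCK (0.27), MCL1 (0.35), PHGDH (0.78), SAMHD1 (0.29) and TOP2A (0.29). Without a filter on low counts the calls of CD33, PKM and SLC7A7 were lost. Some genes that did not pass the test turned sign under alternatives. With library size alone these were HIF1A (0.23), SPI1 (0.22), PFKP (0.16), PFKL (0.14), EZH1 (0.13), VEGFA (0.13) and CDT1 (0.00). Without a filter on low counts they were HIF1A and SPI1 (0.03 each), and the mean of both guides in 6 groups gave KDM6A -0.16, S100A8 -0.04, CTSG -0.03 and DCK -0.00. That mean also added 8 calls. They were PFKL and VEGFA (-0.14 each), CDT1 (-0.29), PHGDH (0.50), CCR2 (-0.76), CST7 (-1.27), FCN1 (1.70) and PRTN3 (0.46). TMM without ribosomal protein genes gave DCK -0.00, and at least 1 CPM in 4 libraries gave it -0.01. Without single libraries the pooled value of KDM6A lay between -0.25 and 0.29, S100A8 between -0.28 and 0.46, CTSG between -0.19 and 0.39, DCK between -0.05 and 0.06, SAMHD1 between -0.03 and 0.08, TOP2A between -0.02 and 0.06 and HIF1A between -0.11 and 0.03. The cause of these turns was not tested. With 2 sgLuc libraries in each comparison, every change rests on them.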
